A study of Mus musculus with 12 samples.

Results

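AP-1 is a family of dimeric transcription factors whose subunits belong to the FOS, JUN, ATF and BATF groups, and 10 of their genes were followed here in mouse kidney: Fos, Fosb, Fosl1, Fosl2, Jun, Junb, Jund, Atf3, Batf2 and Batf3. They were taken by gene name from a table of 43346 genes, and all 10 were present and all 10 passed the filter on low counts. The kidneys came from 2 groups at day 1, 6 sham libraries (Sham 1 to 6) and 6 libraries of mice given HP-AKI (HP-AKI 7, 8, 9, 11, 12 and 13). AKI is acute kidney injury. The labels do not write out HP, letters that usually stand for heme protein as the inducer. Strain, sex, age and the injury procedure are not given in the sources used here. The labels do not say that each library is a separate animal, so p-values describe only how much these libraries vary, in part perhaps for technical reasons.

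AP-1 subunits carry a basic region that touches DNA and a leucine zipper through which they pair. JUN proteins can pair with each other or with FOS proteins, whereas FOS proteins need a partner, and ATF and BATF proteins pair with JUN. Several of the genes are immediate early genes, switched on within minutes of growth or stress signals through kinase cascades and pre-formed factors that bind their promoters. FRA-1, the product of Fosl1, and FRA-2, the product of Fosl2, usually appear later and last longer than FOS itself.

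Totals ran from 31624522 to 41951129 gene-assigned counts per library, and levels below are CPM, counts scaled to a common library total with TMM factors. The 8 kidney markers chosen to check the tissue (proximal tubule, loop of Henle, distal tubule, collecting duct and podocyte genes) were detected, with 6 lower and 1, Umod, higher in HP-AKI (0.25 ± 0.11 on the log2 scale, SE, edgeR adjusted p = 0.0492, not past the threshold in 14 of 21 alternatives) and summed levels of 12974 to 15700.5 CPM in sham and 5719.8 to 8980.4 CPM in HP-AKI. Of 17470 genes tested (edgeR quasi-likelihood F-test with Benjamini-Hochberg adjustment), 37.7% were called higher and 35.2% lower in HP-AKI at an adjusted p under 0.05. The groups therefore differed in 72.8% of all tested genes, and counts of AP-1 genes are read against these shares. The median log2 fold change over all tested genes was 0.04, and it was 0.16 when libraries were scaled by their totals alone.

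Promoter stretches of 5 members are given, chosen because they were the ones in which a search found letters of a cyclic-AMP response element, TGACG or TGACATCA. RefSeq's promoter table for GRCm38.p6 held 8 of the 10 genes, all but Fosl1 and Batf2. Each sequence is the 120 bases before the RefSeq start of transcription, read 5′ to 3′ on the gene's own strand, with capitals for the cyclic-AMP response element letters TGACG, on either strand, and for the variant TGACATCA.
Fos, chr12:85473770-85473889, plus strand: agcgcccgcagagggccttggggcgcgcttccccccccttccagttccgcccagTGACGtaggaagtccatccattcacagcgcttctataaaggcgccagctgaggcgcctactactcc
Fosb, chr7:19310046-19310165, minus strand: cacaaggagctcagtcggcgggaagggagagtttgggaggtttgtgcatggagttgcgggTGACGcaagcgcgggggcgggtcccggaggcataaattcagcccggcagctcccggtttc
Jun, chr4:95052223-95052342, minus strand: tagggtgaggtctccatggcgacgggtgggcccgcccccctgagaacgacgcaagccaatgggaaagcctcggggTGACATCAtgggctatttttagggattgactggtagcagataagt
Junb, chr8:84978749-84978868, minus strand: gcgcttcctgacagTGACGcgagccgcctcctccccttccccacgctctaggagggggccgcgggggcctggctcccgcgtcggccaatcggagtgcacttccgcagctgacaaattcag
Atf3, chr1:191183334-191183453, minus strand: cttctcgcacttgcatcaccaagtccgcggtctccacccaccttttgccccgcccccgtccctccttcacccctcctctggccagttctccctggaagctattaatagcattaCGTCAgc

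Within the 250 bases before the start, both strands searched, TGACG was found in 4 of the 8 genes, Fos, Fosb, Junb and Atf3, and in 17.8% of all 32851 promoters of the same length in the table. It began 66 bases before the start in Fos, 60 bases in Fosb and 106 bases in Junb, with a further copy at 129 bases in Fos, outside the stretch printed. In Atf3 it lay on the reverse strand, 7 to 3 bases before the start. That start lies within the listed span of Atf3 (191170296 to 191218039, minus strand). The 5′ end of the span was not searched. Jun held TGACATCA, 45 to 38 bases before its start, a sequence present in 2.93% of all promoters. The AP-1 site TGACTCA, the full element TGACGTCA, which contains TGACG, and the CArG box bound by serum response factor were in none of the 8 windows, against 4.46%, 1.55% and 1.47% of all promoters. Bases farther upstream were not searched, so the promoters may hold such elements there, including a CArG box in Fos. TGACG and TGACATCA were singled out after the sequences were read. Neither was found in the windows of Fosl2, Jund and Batf3, which are not printed and which rose in HP-AKI as well. Unlike in the printed genes, no GENCODE vM21 transcript start was found near or beyond the end of these 3 windows. Whether these 3 cover the promoters in use is therefore not known. Among the printed genes, a start found need not lie at the window's end. In Junb, on the minus strand, the vM21 gene ends at 84978718, past the window that begins at 84978749.

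Of the 10 AP-1 genes, 9 were higher in HP-AKI and 1, Batf2, was lower, beside 37.7% and 35.2% of all tested genes. Among the 9 are Fosl1 and Fosb, which passed the filter on low counts through their HP-AKI libraries alone. Their median log2 fold change was 3.15, and it was also 3.15 with Fosl1 entered at the lower bound given below. In 9 of the 10 genes every HP-AKI library lay above every sham library, a pattern seen in 26.7% of tested genes. Batf2 was the exception, with 3 HP-AKI libraries below all sham libraries and 3 within the sham range.

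**Figure D1:**
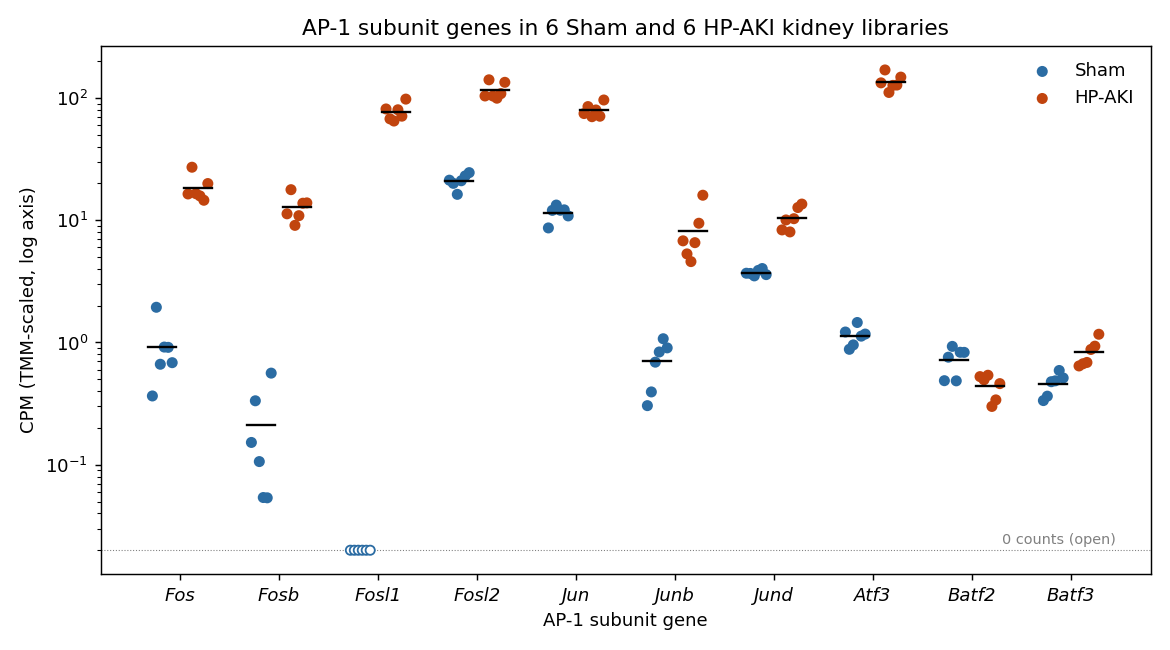
Each point is 1 library, with TMM-scaled CPM on a log axis, sham in blue and HP-AKI in orange, and the black bar is the group mean of 6 libraries. Open points at the dotted line stand for 0 counts. In all genes but Batf2 the HP-AKI points lie above all sham points, and among the members with sham counts the lowest HP-AKI value is from 1.09 times (Batf3) to 76.1 times (Atf3) the highest sham value.

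Fosl1 (ENSMUSG00000024912, GRCm38 chromosome 19, 5447703 to 5455945, plus strand) encodes FRA-1, the FOS-family subunit known for roles in epithelial migration and invasion. It had 0 counts in all 6 sham libraries together. In HP-AKI it had 2315 to 3467 counts per library, or 64.7 CPM at the lowest, a median of 75.5 and 97.8 at the highest. The lowest value was in HP-AKI 9 and the highest in HP-AKI 13, and the groups did not overlap. The HP-AKI mean was 77.0 ± 12.1 CPM (SD, n = 6). That is at least 5617-fold higher than the 0.0137 CPM which 3 counts in the 6 sham libraries together would give. It passed the filter on low counts through its HP-AKI libraries alone. The coefficient of variation among HP-AKI libraries was 15.8%.

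Fosl2 (ENSMUSG00000029135, chromosome 5, 32136472 to 32157831, plus strand) encodes FRA-2 and was the FOS-family gene with the highest level in sham. Its sham libraries ran from 16.3 to 24.5 CPM with a median of 21.1, and its HP-AKI libraries from 99.5 to 140.6 CPM with a median of 106. The lowest HP-AKI value was 4.06 times the highest sham value. The log2 fold change was 2.45 ± 0.12 (SE), with an edgeR adjusted p of 8.99e-11.

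Fos (ENSMUSG00000021250, chromosome 12, 85473890 to 85477273, plus strand), the founding immediate early gene of the family, ran from 0.365 to 1.94 CPM in sham with a median of 0.798. In HP-AKI it ran from 14.6 to 27.1 CPM with a median of 16.4, so that the groups stood apart. Sham 2 and HP-AKI 8 were the high libraries of their groups. Fos rose by 4.33 ± 0.30 (SE) on the log2 scale, with an edgeR adjusted p of 4.07e-09. Its spread was wide in sham, with a coefficient of variation of 59.4%, against 25.2% in HP-AKI.

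Fosb (ENSMUSG00000003545, chromosome 7, 19302721 to 19310045, minus strand) encodes FOSB and, by splicing, the stable truncated form ΔFOSB, which gene-level counts do not separate. It had 2 to 23 counts per library in sham, or 0.0537 to 0.562 CPM with a median of 0.129. In HP-AKI it had 370 to 610 counts, or 9.07 to 17.8 CPM with a median of 12.5. All HP-AKI values lay above all sham values, and Sham 6 was the high sham library. The log2 fold change was 5.88 ± 0.38 (SE), with an edgeR adjusted p of 2.09e-09, and it was 6.51 without Sham 6. Like Fosl1, Fosb passed the filter on low counts through its HP-AKI libraries alone.

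Per kilobase of listed gene length, the summed level of the 4 FOS-family genes was 4.03 ± 0.541 CPM per kilobase (SD, n = 6) in sham and 76.0 ± 9.44 (SD, n = 6) in HP-AKI, an 18.8-fold difference. Its make-up also differed. Fosl2 held 78.9 to 94.9% of this sum in sham and 23.1 to 30.1% in HP-AKI. Fosl1 held 0% in sham, where it had no counts, and 49.5 to 63.8% in HP-AKI. Its test is counted among the 7 shares below but is not read, because sham had no counts. Fosb held 1.33 ± 1.13% (SD, n = 6) in sham and 4.47 ± 0.899% in HP-AKI. For the shares of Fosl2 and Fosb the exact permutation test over libraries, two-sided, gave p = 0.00216, the smallest this design allows, and an adjusted p of 0.00379 over the 7 shares of both families. All 6 HP-AKI libraries lay beyond all 6 sham libraries in both shares. The shares of a family add up to the whole, so the lower share of Fosl2 is not separate from the share that Fosl1 held in HP-AKI. The share of Fosb in sham rests on 2 to 23 counts per library. Fosb also passed the filter on low counts through its HP-AKI libraries alone, so its test adds little.

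The share of Fos did not pass that test. It was 9.54 ± 5.13% (SD, n = 6) in sham and 10.3 ± 2.15% in HP-AKI (exact permutation, adjusted p = 0.79). Fos transcripts were thus 4.33 log2 units higher in HP-AKI while their part of the FOS-family sum ran from 4.06 to 19.0% in sham and from 8.85 to 14.4% in HP-AKI. Its sign depended on the gene lengths used: the difference was 0.74 points with the listed lengths, -1.55 points with GENCODE vM21 exon lengths and 4.03 points, with an adjusted p of 0.0152, when counts were not divided by length.

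**Figure D2:**
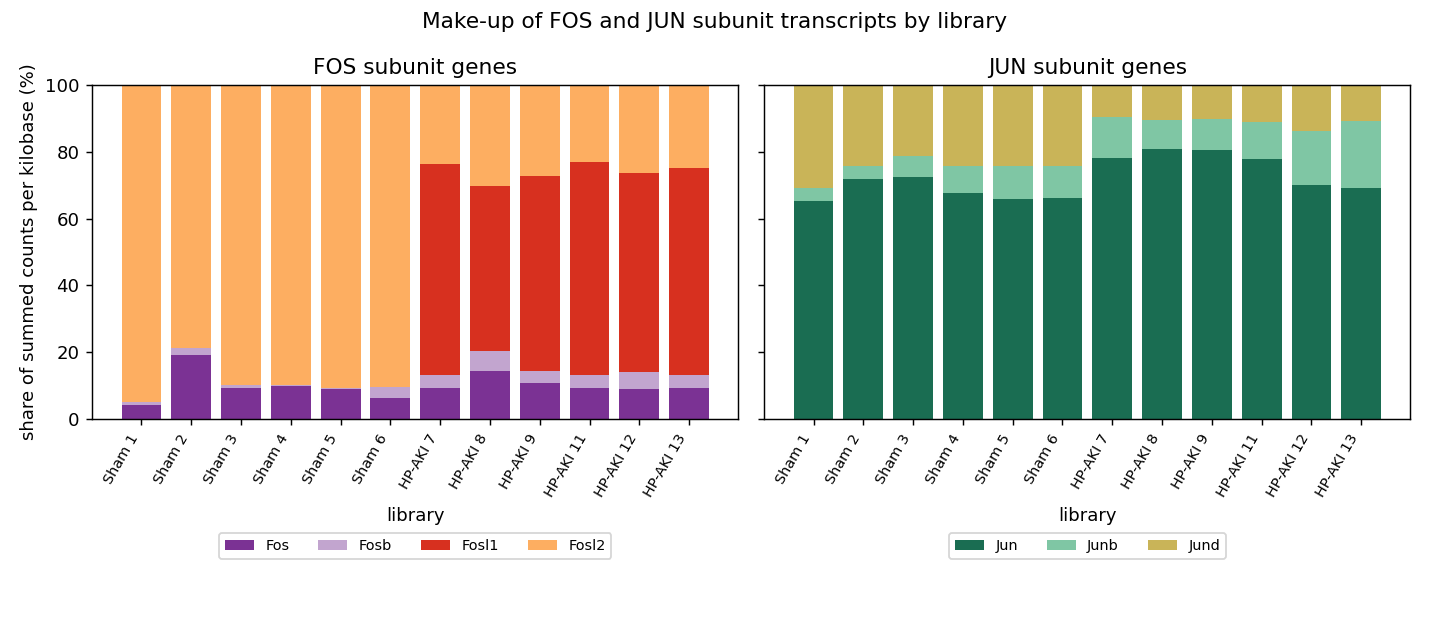
Stacked bars show, for each library, the share in percent of the summed counts per kilobase of the FOS-family genes (left) and the JUN-family genes (right). In the 6 sham bars Fosl2 takes at least 78.9% of the FOS sum, and in the 6 HP-AKI bars Fosl1 takes 49.5 to 63.8%. The JUN bars are led by Jun in all 12 libraries.

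Jun (ENSMUSG00000052684, chromosome 4, 95049034 to 95052222, minus strand) encodes c-JUN, the target of the JNK kinases and the strongest activator among the JUN proteins. It ran from 8.65 to 13.3 CPM in sham with a median of 12.05, and from 70.2 to 96.2 CPM in HP-AKI with a median of 77.1. The lowest HP-AKI library was 5.28 times the highest sham library. Jun rose by 2.79 ± 0.11 (SE) on the log2 scale, with an edgeR adjusted p of 1.77e-11. Junos, annotated over 232 exon bases of Jun on the opposite strand, rose by 1.38 ± 0.23 on the log2 scale to 118 to 245 counts per HP-AKI library, fewer than the 2506 to 3454 counts of Jun. The library kit does not mark strand, so reads where Jun and Junos overlap cannot be assigned to either gene.

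Junb (ENSMUSG00000052837, chromosome 8, 84976909 to 84978748, minus strand) encodes JUN-B, which can restrain c-JUN on some promoters. It ran from 0.304 to 1.07 CPM in sham with a median of 0.763, and from 4.59 to 16.0 CPM in HP-AKI with a median of 6.66. The groups did not overlap, and the log2 fold change was 3.51 ± 0.35 (SE) with an edgeR adjusted p of 2.96e-07. Its HP-AKI libraries were the most spread of any member, with a coefficient of variation of 51.9%, and HP-AKI 13 stood highest.

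Jund (ENSMUSG00000071076, chromosome 8, 70697739 to 70700616, plus strand) encodes JUN-D, the JUN protein that most resting cells express. It showed little spread in sham, where it ran from 3.50 to 4.02 CPM with a median of 3.68 and a coefficient of variation of 5.20%. In HP-AKI it ran from 8.02 to 13.5 CPM with a median of 10.2, so that every HP-AKI library was at least 1.99 times the highest sham library. The log2 fold change was 1.49 ± 0.14 (SE), with an edgeR adjusted p of 1.23e-07, the smallest rise among the FOS and JUN genes.

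The 3 JUN-family genes together had 5.28 ± 0.612 CPM per kilobase (SD, n = 6) in sham and 32.9 ± 5.58 in HP-AKI, a 6.24-fold difference. Jund fell from 24.8 ± 3.19% (SD, n = 6) of this sum in sham to 11.05 ± 1.48% in HP-AKI without overlap (exact permutation, two-sided, adjusted p = 0.00379). Jun rose from 68.2 ± 3.12% to 76.1 ± 5.17% and Junb from 7.05 ± 2.65% to 12.9 ± 4.38%, both with overlapping groups and an exact permutation adjusted p of 0.0202. Neither passed without Sham 1, Sham 2 and HP-AKI 8, with differences of 7.13 and 5.16 points and an adjusted p of 0.0741 each. The ratio of the FOS sum to the JUN sum, computed after the values were seen and not tested, was 0.536 to 0.920 in sham and 2.12 to 2.51 in HP-AKI.

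Atf3 (ENSMUSG00000026628, chromosome 1, 191170296 to 191218039, minus strand) encodes a stress-induced factor that pairs with JUN proteins and can act as a repressor. It ran from 0.879 to 1.46 CPM in sham with a median of 1.15, and from 110.8 to 169.3 CPM in HP-AKI with a median of 130.1. The lowest HP-AKI value was 76.1 times the highest sham value, the widest gap among the members with sham counts. The log2 fold change was 6.90 ± 0.15 (SE), with an edgeR adjusted p of 4.89e-14, and it ranked 55 of 17470 tested genes.

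Batf3 (ENSMUSG00000026630, chromosome 1, 191097847 to 191108945, plus strand) encodes a factor needed for the dendritic cells that present antigen to CD8 T cells. It had 11 to 22 counts per library in sham, or 0.335 to 0.590 CPM with a median of 0.482. In HP-AKI it had 22 to 38 counts, or 0.643 to 1.17 CPM with a median of 0.782. The groups stood apart by a narrow margin, the lowest HP-AKI value being 1.09 times the highest sham value. Batf3 rose by 0.83 ± 0.21 (SE) on the log2 scale, with an edgeR adjusted p of 0.00258. Beside it, the dendritic cell markers moved the other way or did not pass: 4 of 7 tested of 8 were lower and 0 higher, with Xcr1 falling by 3.84 ± 0.28 and Clec9a by 3.89 ± 0.28 on the log2 scale, and the summed level of the list ran from 27.4 to 37.7 CPM in sham and 21.9 to 30.99 CPM in HP-AKI. Over all tested genes, 35.2% were lower and 37.7% higher. Xcr1 and Clec9a passed the filter on low counts through their sham libraries alone. In whole kidney, fewer cells of a type and less RNA per cell cannot be told apart.

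Batf2 (ENSMUSG00000039699, chromosome 19, 6140983 to 6172476, plus strand) encodes a factor induced by interferon in macrophages. It had 16 to 35 counts per library in sham, or 0.486 to 0.929 CPM with a median of 0.794, and 12 to 22 counts in HP-AKI, or 0.300 to 0.540 CPM with a median of 0.478. The groups overlapped, and the log2 fold change was -0.71 ± 0.23 (SE) with an edgeR adjusted p of 0.0134. Macrophage and monocyte markers did not move in 1 direction: 3 of 8 were higher and 5 lower, with summed levels of 106 to 139 CPM in sham and 85.1 to 133 CPM in HP-AKI. Neutrophil markers rose in 5 of 5 tested of 8, from 1.94 to 3.66 CPM in sham to 19.0 to 157 CPM in HP-AKI in sum, while the granule genes Mpo and Elane had 5 and 2 counts over all HP-AKI libraries. Of 8 lymphocyte markers 6 were tested, with 5 lower and 0 higher (6.50 to 8.18 CPM in sham and 1.29 to 1.72 CPM in HP-AKI in sum), and of 6 endothelial markers 3 were higher and 1 lower. Beside all these counts stand 37.7% higher and 35.2% lower over all tested genes. Some neutrophil markers passed the filter on low counts through HP-AKI libraries alone, and some lymphocyte markers through sham libraries alone. The part of these cells in the AP-1 values was not tested.

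Per kilobase of listed length, the order of the levels differed between the groups. In sham it ran Jun (3.61 ± 0.503 CPM per kilobase, SD, n = 6), Fosl2 (3.59 ± 0.481), Jund (1.29 ± 0.0673), Atf3, Fos, Junb, Batf3, Batf2, Fosb and Fosl1. Jun and Fosl2 did not differ beyond their spread, each being above the other in 3 of 6 libraries, and the ranges of each neighbouring pair from Atf3 to Batf2 overlapped too. In HP-AKI the order was Atf3 (63.1 ± 9.42), Fosl1 (45.1 ± 7.12), Jun (24.9 ± 3.11), Fosl2 (19.6 ± 3.02), Fos (7.81 ± 1.97), Junb, Jund, Fosb, Batf3 and Batf2. Atf3 was above Fosl1 in 6 of 6 libraries although their ranges overlapped, as was Jun above Fosl2, and neighbouring ranges among Fos, Junb, Jund and Fosb overlapped as well. Some listed lengths differ from the exon length of GENCODE vM21: 2878 against 1668 bases for Jund, 3751 against 6243 for Fosb and 5855 against 9680 for Fosl2, which bears on every level per kilobase of these genes. With the vM21 lengths the order itself changed. In sham Jun (3.61) then stood apart from Jund (2.23) and Fosl2 (2.17), with Jund above Fosl2 in 5 of 6 libraries. In HP-AKI Atf3 and Fosl1 (37.9) no longer overlapped, and Jund (6.29) stood above Junb (3.52) in 6 of 6 libraries.

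**Figure D3:**
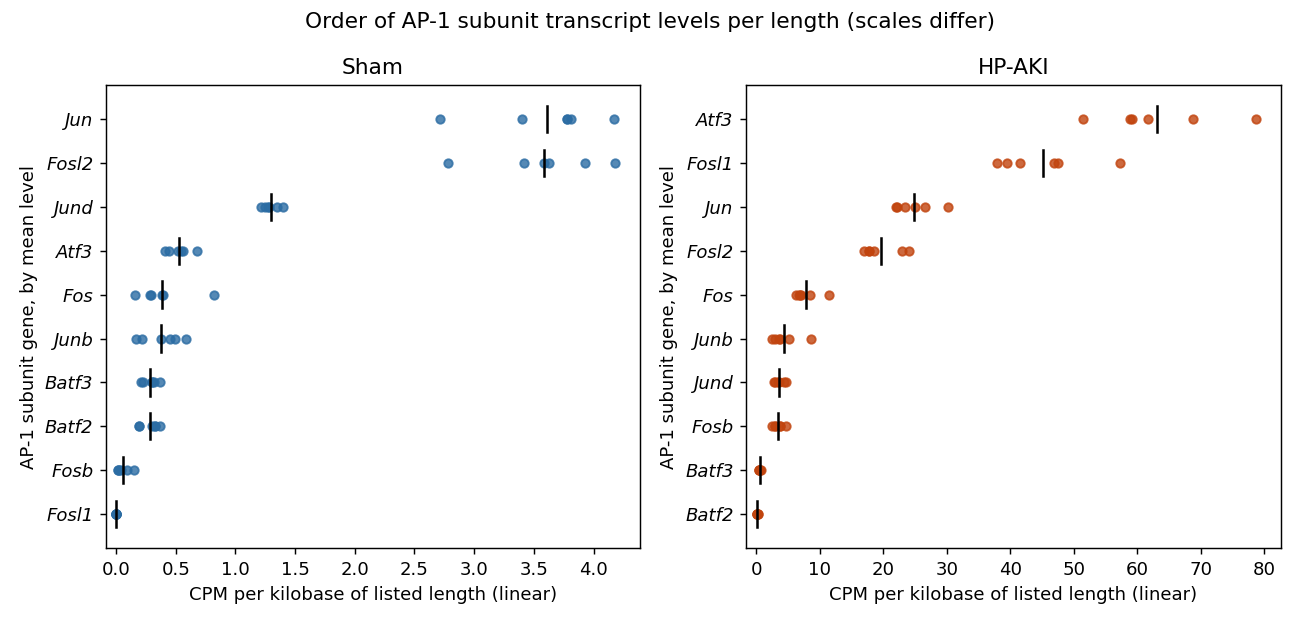
Points are libraries and black ticks group means of CPM per kilobase of listed gene length on linear axes, whose ranges differ between sham (left) and HP-AKI (right). Genes are ordered by mean level within each group. Jun and Fosl2 lead in sham at 3.61 and 3.59 CPM per kilobase, and Atf3 and Fosl1 in HP-AKI at 63.1 and 45.1.

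Among HP-AKI libraries the members fell into 2 patterns by their highest library. HP-AKI 8 was highest for Fos, Fosb, Fosl2 and Atf3, and HP-AKI 13 for Fosl1, Jun, Junb, Jund and Batf3. HP-AKI 9 was lowest for 6 members. HP-AKI 8 was also highest for 5 of the 5 tested neutrophil markers, whose list summed to 157 CPM there and to 19.0 to 58.8 CPM in the other HP-AKI libraries. Sham 6, highest for Fosb and Fosl2, was likewise the highest sham library for all 5, with a sum of 3.66 CPM. Fos, however, was highest in Sham 2 and Atf3 in Sham 4. Without HP-AKI 8 the log2 fold changes were 4.17 ± 0.27 (SE) for Fos, 5.73 ± 0.36 for Fosb, 2.36 ± 0.11 for Fosl2 and 6.80 ± 0.13 for Atf3, all still called. The part of neutrophils in the spread among libraries was not tested. Transcripts of the first 4 genes have a GC content of 51.9 to 56.0% and those of the other 5 of 55.5 to 67.1%. Over all tested transcripts, the GC-richest 10% of genes (at least 57.5% GC) deviated from the mean of its own group by a median of -0.48 log2 units in HP-AKI 8 and 0.42 in HP-AKI 13, and by -0.34 in Sham 1 and -0.49 in Sham 2. Junb had its lowest sham values in Sham 1 and Sham 2 (0.304 and 0.394 CPM) and its highest HP-AKI value in HP-AKI 13, but its lowest HP-AKI value in HP-AKI 9. Jund, the member with the highest GC content at 67.1%, was not low in Sham 1 or Sham 2, whose log2 CPM of 1.90 each lay within a sham range of 1.83 to 2.03. The part of GC content in the spread among libraries was not tested. A fit with offsets for GC content, added after the data were seen, gave the same calls for all 10 members, with log2 fold changes of 3.23 ± 0.23 (SE) for Junb, 1.22 ± 0.15 for Jund and 0.59 ± 0.16 for Batf3 (edgeR adjusted p at most 0.0039 for these).

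**Figure D4:**
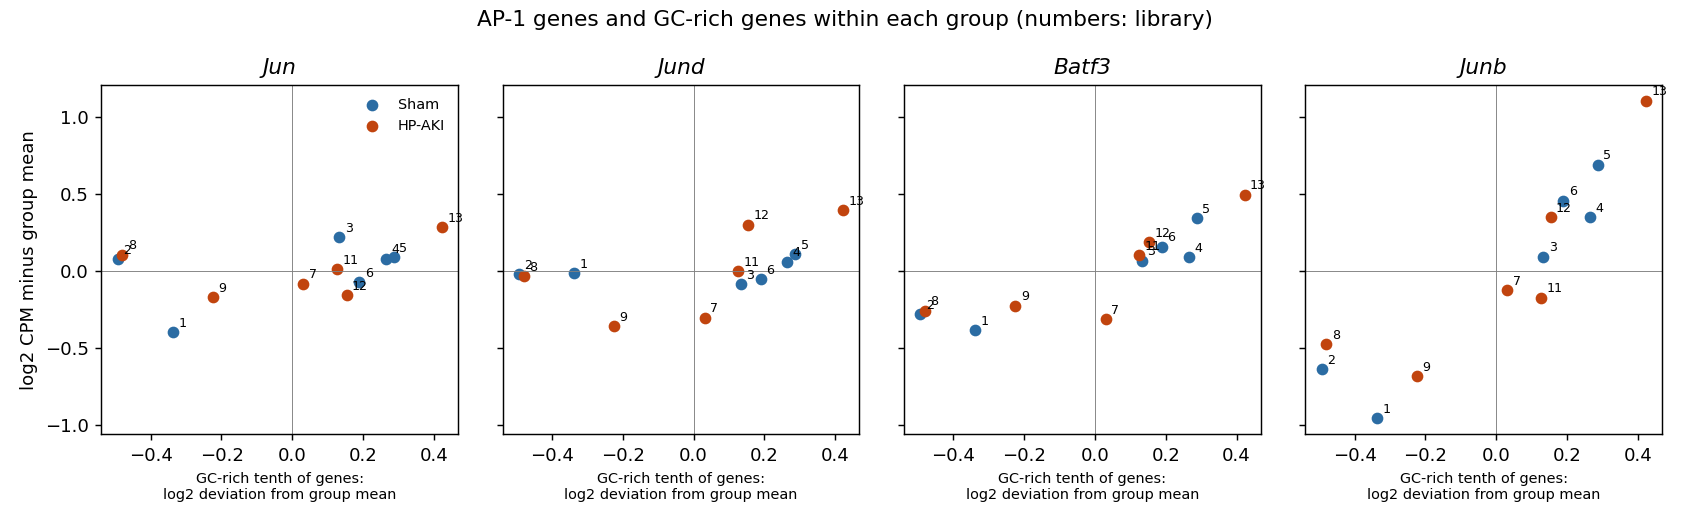
Each point is 1 library, numbered as in the text, with its log2 CPM of the gene minus the mean of its own group against the median log2 deviation of the GC-richest 10% of genes from that mean, sham in blue and HP-AKI in orange. Junb and Batf3 are low in Sham 1, Sham 2, HP-AKI 8 and HP-AKI 9, where GC-rich genes are low, and high in HP-AKI 13. Both also lie below their group mean in HP-AKI 7, as does Junb in HP-AKI 11, where GC-rich genes are not low, and Jun and Jund are near or above it in Sham 2 and HP-AKI 8.

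Relations between members within a group were computed for 81 pairs, 45 among HP-AKI and 36 among sham libraries, where Fosl1 had no counts. By exact permutation of all orders of the 6 libraries, two-sided, 0 pairs passed an adjusted p of 0.05, and 9 HP-AKI pairs and 1 sham pair had an unadjusted p under it. The sham pair was Junb with Batf3 (Pearson r = 0.99, exact permutation p = 0.00139, adjusted 0.1125; Spearman rho = 1.0, p = 0.00278, adjusted 0.225; n = 6), with r = 0.91 without the 2 libraries farthest from the median of Junb. The r of Jund was 0.39 with Junb and 0.41 with Batf3 in sham. In HP-AKI, r was positive in 37 of 45 pairs with a median of 0.44, and in sham in 24 of 36 pairs with a median of 0.24. By Spearman rho 3 HP-AKI pairs had an unadjusted p under 0.05. Of the 9 HP-AKI pairs by Pearson r, 2 changed sign without the 2 farthest libraries, among them Fos with Fosl2, from 0.88 to -0.60.

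Over the 12 libraries, the genes whose log2 CPM followed the mean of the 10 standardized members most closely were Ezr, Itpkc, Ddit4, Trib3 and Rab3gap2, with Pearson r from 0.992 to 0.994. Ezr, which encodes the membrane linker ezrin, also stands on the list of AP-1 targets used below. These values describe mainly the gap between the groups, and 1063 of 10912 genes compared had an r over 0.95.

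Of 6 other bZIP genes that pair within the AP-1 family, 3 were higher, 1 lower and 2 did not pass, with a median log2 fold change of 0.19. Over all tested genes, 37.7% were higher and 35.2% lower. Maf, a large MAF protein with a bZIP domain, fell from 273 ± 51.7 to 38.5 ± 6.73 CPM (SD, n = 6), a log2 fold change of -2.83 ± 0.14 (SE, edgeR adjusted p = 1.37e-10), with no overlap between 219 to 362 CPM in sham and 31.1 to 50.03 in HP-AKI. It also had the highest level per kilobase of this list, at 33.1 CPM per kilobase in sham. Batf, a partner of JUN proteins in lymphocytes, rose from 38 counts over the sham group to 106 over HP-AKI, a log2 fold change of 1.47 ± 0.33 (adjusted p = 8.79e-04). Like Fosl1 and Fosb, Batf passed the filter on low counts through its HP-AKI libraries alone. Jdp2, a repressor that binds AP-1 and CRE sites, rose by 0.88 ± 0.20. Atf7 rose by 0.32 ± 0.09, and Atf2 (0.06 ± 0.10) did not pass; Jdp2, Atf7 and Atf2 are named after their values were seen.

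Of 26 kinases and factors that act upstream of AP-1, 16 were higher, 2 lower and 8 did not pass, with a median of 0.52. Among all tested genes, 37.7% were higher and 35.2% lower. Map3k8, the kinase TPL2 that feeds the ERK pathway, rose from 3.88 ± 0.361 to 22.3 ± 6.82 CPM (SD, n = 6), a log2 fold change of 2.52 ± 0.18 (SE, edgeR adjusted p = 7.58e-09). Mapk11, p38 beta, rose by 1.98 ± 0.13 (adjusted p = 3.43e-09). The members of the p38 arm went both ways: Map2k3 rose by 1.78 ± 0.11 and Mapk13 by 1.54 ± 0.20, while Mapk14, p38 alpha, fell by 1.04 and Map2k6 fell by 1.502 on the log2 scale. The JNK genes Mapk8 and Mapk9, whose products phosphorylate c-JUN, rose by 0.59 ± 0.10 and 0.35 ± 0.08, and the other JNK gene, Mapk10, did not pass (-0.46 ± 0.21, edgeR adjusted p = 0.0574). Srf, which drives Fos through the serum response element, rose by 0.95 ± 0.15, and its partners Elk4 and Elk3 by 1.15 ± 0.08 and 0.41 ± 0.08, whereas Elk1 (0.08 ± 0.10) did not pass. Beyond Map3k8 and Mapk11 these genes were named after their values were seen.

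Of 6 genes for the turnover of AP-1 proteins, whether by breakdown or by protection from it, 2 were higher, 2 lower and 2 did not pass. Their median was -0.07. That split is near the 37.7% higher and 35.2% lower of all tested genes. Det1, a subunit of a ubiquitin ligase that removes c-JUN, fell from 3.68 ± 0.577 to 1.66 ± 0.309 CPM (SD, n = 6; edgeR adjusted p = 7.20e-06). Fbxw7, which marks phosphorylated c-JUN for destruction, rose by 0.54 ± 0.08 (SE) on the log2 scale (adjusted p = 2.61e-05). Itch, a ligase for c-JUN and JUN-B named after its value was seen, fell by 0.31 on the log2 scale and no longer passed when libraries were scaled by their totals alone (-0.19, adjusted p = 0.0508).

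Of 20 genes known from textbooks as AP-1 targets, 17 were higher, 2 lower and 1 did not pass, with a median of 3.30 (3.30 with Mmp10 at its lower bound). The shares over all tested genes were 37.7% higher and 35.2% lower. Mmp10 and some other targets with few sham counts passed the filter on low counts through their HP-AKI libraries alone. A call of lower was hardly open to these genes, so the count of 17 is partly set by the filter. Timp1, an inhibitor of metalloproteinases, rose from 0.273 to 1.37 CPM in sham to 42.9 to 77.6 CPM in HP-AKI, a log2 fold change of 6.63 ± 0.30 (SE, edgeR adjusted p = 4.71e-11). Mmp10, stromelysin 2, had 0 counts in sham and 15.6 ± 6.46 CPM (SD, n = 6) in HP-AKI, or at least 1137-fold higher with the same limit of 3 sham counts. Spp1, osteopontin, had the highest level per kilobase and rose by 4.23 ± 0.15. Plaur, the urokinase receptor, rose by 5.31 ± 0.21, while Plau, urokinase itself, was among the most abundant of the list at 672 ± 103 CPM in sham and 631 ± 109 in HP-AKI (SD, n = 6) and did not pass (-0.09 ± 0.12). Ccnd1, cyclin D1, fell by 2.104 on the log2 scale and Mmp13, collagenase 3, fell by 2.01, each without overlap of the groups. Ccnd1, Mmp13, Plaur and Plau were named after their values were seen, and the list was drawn up with earlier results of these data known.

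**Figure D5:**
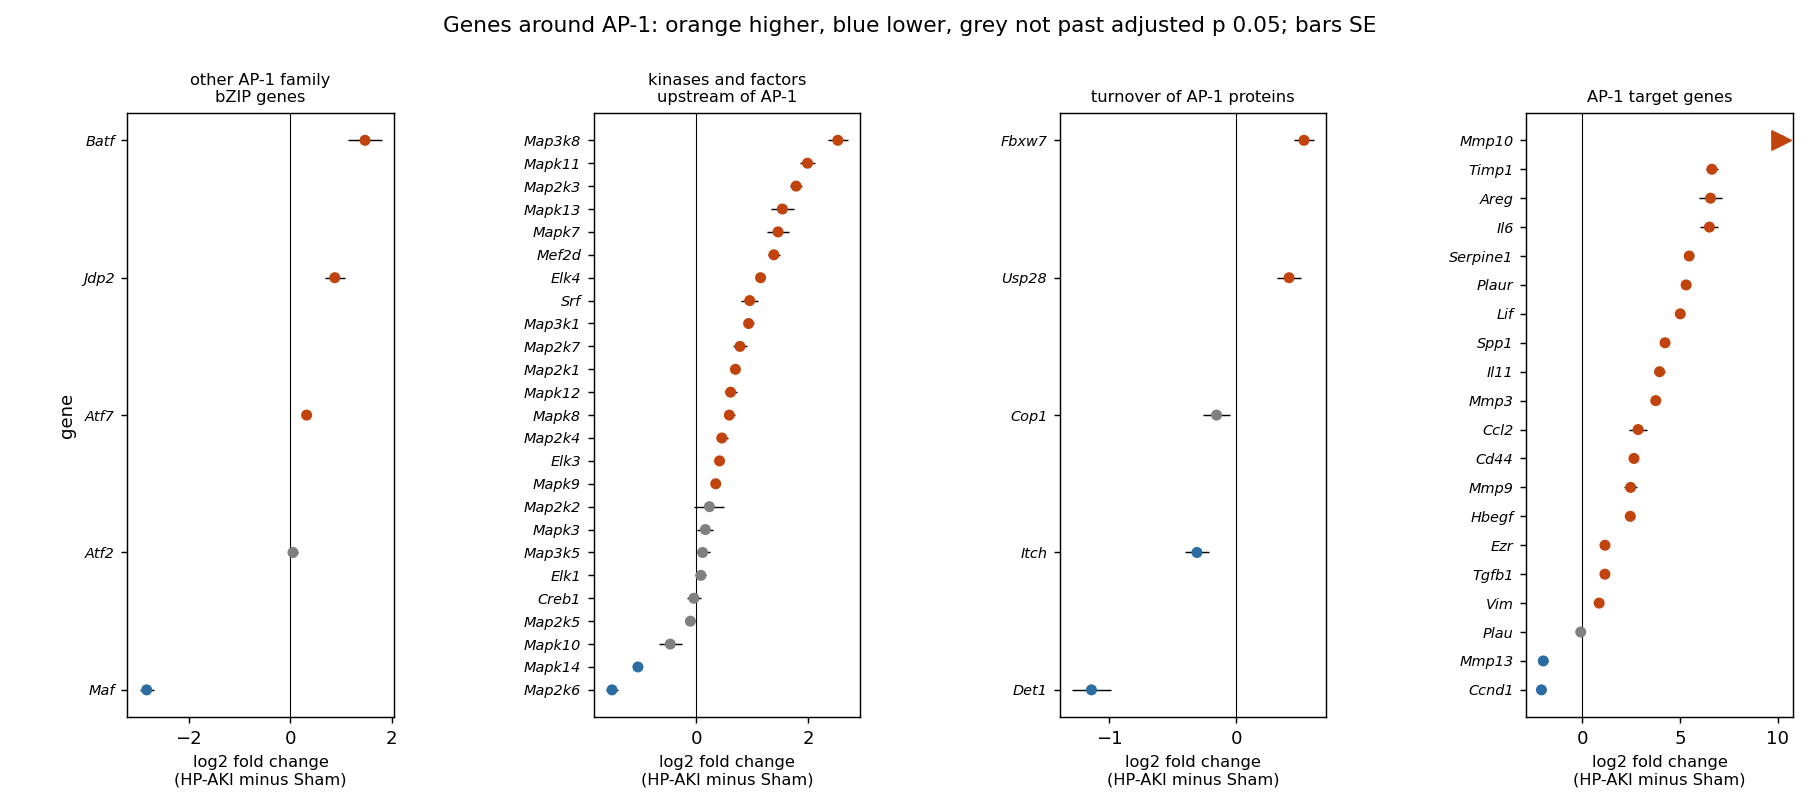
Points are log2 fold changes (HP-AKI minus sham, edgeR) and bars their SE for the reported genes of 4 lists around AP-1, orange for higher, blue for lower and grey for not past an adjusted p of 0.05. The triangle marks Mmp10 at its lower bound, since sham had 0 counts. The scales differ between panels. Most of the target genes shown lie to the right of 0, with Ccnd1 and Mmp13 in blue on the left. Plau, in grey, lies just left of 0 at -0.09. Maf is the only bZIP gene of its panel in blue.

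Tested genes whose promoter window holds the AP-1 site TGACTCA on either strand numbered 519, of which 244 (47%) were higher and 168 (32.4%) lower, with a median log2 fold change of 0.22. Over all 11695 tested genes in the promoter table, 37.8% were higher and the median was 0.02. For the CRE TGACGTCA the share higher was 44.8% of 335 genes, for the CArG box 48.5% of 171 genes and for the TATA box TATAAA 39% of 1013 genes. These are descriptions of letters in a window and were not tested.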

How the data were processed

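The data are 1 deposited table for 12 mouse kidney libraries. Extraction used trizol and a Qiagen kit, followed by TruSeq RNA v2 library preparation, per the labels' protocols. GRCm38, TopHat2 2.1.0, edgeR and featureCounts appear in the submitters' processing notes, with neither roles nor settings. The strand setting used for counting was not stated there. The deposited values are, for each library, whole-number counts per gene and RPKM (reads per kilobase and library total, per the file headers), both made by the authors. RPKM served only as an alternative for subunit shares. Groups come from the sample titles, whose numbers do not recur between groups; the sources used here name no batch.

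After filterByExpr and TMM scaling, edgeR 4.0.16 (with limma 3.58.1, R 4.3.3) gave a two-sided quasi-likelihood F-test of the counts, with Benjamini-Hochberg adjustment over 17470 genes. The SE is the absolute log2 fold change divided by the square root of F. Shares of the FOS and JUN sums were compared by exact permutation over libraries. Relations used log2 CPM (prior count 2). Alternatives were RLE, upper-quartile and library-size scaling, no filter, 1 CPM in 6 libraries, DESeq2 1.42.0, limma-voom, leaving out each library, leaving out Sham 1, Sham 2 and HP-AKI 8, and, added after the data were seen, GC offsets in 10 bins and GENCODE vM21 lengths (shares and order of levels). The steps were tested on simulated data with the library totals of this comparison. Over 16734 genes, edgeR called 26.6%, 93.8% and 100% of genes changed by 0.5, 1 and 2 log2 units, and 7.79% of its calls were unchanged genes. The simulation started from sham means, changed 200 genes and gave every gene the same dispersion. In the real data 72.8% of tested genes were called and spread differed between genes, so these rates need not hold there. Limits set from 3 counts cover counting error only.

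The members and the 11 lists (114 entries, 2 matched by identifier) were chosen with earlier results of these data known. The rule for named genes took all members, from each of the 4 AP-1 lists the 2 called genes with the largest change and the one with the highest level per kilobase, genes annotated over a member, and the 5 genes (mean at least 5 CPM) most like the members. Values of 3 genes of these lists are not reported here, although the counts and medians of the lists include them. GC content and overlaps come from GENCODE vM21. There Ccdc85b shares exon bases with Fosl1 and Prdx2 with Junb, but the spans listed in the deposited table do not overlap.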

Additional observations from a re-analysis of the deposited data

Results flagged for a closer look

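In 54 groups of 6 libraries examined, 5 had 1 library far from the other 5 by the ratio of its gap to the whole range. Chance gives about 1 in 20 when groups are independent. These are not: levels and shares of the same genes were both examined, and shares of a family add up to the whole. Groups with 0 counts throughout could not be flagged. Whether 5 is more than chance gives was not tested. Sham 2 held 1.94 CPM of Fos, with the other sham libraries at 0.365 to 0.917. Fosl2 took 78.9% of the FOS-family sum in Sham 2, with the other sham libraries at 89.9 to 94.9%. Fos took 14.4% of that sum in HP-AKI 8, with the other HP-AKI libraries at 8.85 to 10.8%. Jund took 30.8% of the JUN-family sum in Sham 1, with the others at 21.1 to 24.3%, and 13.9% in HP-AKI 12, with the others at 9.66 to 11.1%. GC-rich genes deviated from their group mean by -0.34 log2 units in Sham 1, -0.49 in Sham 2, -0.48 in HP-AKI 8 and 0.15 in HP-AKI 12, and Jund is the member with the highest GC content.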

How the results depend on the processing

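No paired analysis was possible because the groups share no replicate numbers. All 10 members kept their direction and their call in every alternative that tested them. Batf2 and Batf3 were not tested at 1 CPM in 6 libraries, where 0 members were called lower. With libraries scaled by their totals alone, 1 gene of AP-1 protein turnover was called lower instead of 2. The difference in the share of Fos was 4.03 points without division by length (adjusted p = 0.0152), -1.55 points with GENCODE vM21 lengths, and -0.36 to 2.64 points when 1 library was left out, negative without Sham 1 (-0.36) and without HP-AKI 8 (-0.0994). The differences for Jun and Junb were 7.13 and 5.16 points and no longer passed without Sham 1, Sham 2 and HP-AKI 8, which leaves 9 libraries. The cause of these changes was not tested. Low counts limit Batf2, Batf3 and, in sham, Fosb most.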

Other observations

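In GENCODE vM21, 5 members share exon bases with another gene, and Junos is described with Jun. The spans of Atf3 (Gm24748) and Batf2 (n-R5s19 and Gm5510) also hold genes that share 0 exon bases with them. Ccdc85b, whose GENCODE vM21 exons share 1163 bases with Fosl1, had 0 to 18 counts per sham library and 5 to 26 per HP-AKI library and did not pass (0.99 ± 0.49 on the log2 scale, SE, edgeR adjusted p = 0.079). Prdx2, which shares 173 exon bases with Junb in that annotation, fell by 0.57 on the log2 scale, in the direction opposite to Junb. Gm11175, which lies over 877 exon bases of Jund, had 0 to 2 counts per library and was not tested. Arl2, which shares 51 exon bases with Batf2, did not pass (-0.09 ± 0.10).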
